A study of Mus musculus with 3 samples.

Results

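The genes described here are 10 members of the interleukin-1 system in mouse liver: the ligands Il1a, Il1b, Il33 and Il18, the receptor subunits Il1r1 and Il1rap, the inhibitors Il1rn, Il1r2 and Il18bp, and the protease Casp1. They were taken by gene symbol from the 23361 genes of the tables. The rule itself uses no measured value, but the genes were chosen with earlier results of these data known. All 10 were found, and all 10 were among the 10792 genes with a level of 1 or more in some sample, in FPKM (fragment counts scaled by transcript length and by the number of fragments mapped). The study asked how liver gene expression differs between the ischemia stage and the reperfusion stage of ischemia-reperfusion injury. In the sham group, C57BL/6J mice had a laparotomy without occlusion, and livers were taken 90 min later. In the warm ischemia (WI) group, the vessels to the left and median lobes were clamped for 90 min. In the IR group, the same 90 min of clamping was followed by 120 min of reperfusion. All mice were labelled male, were 8 to 10 weeks old, had been fasted and were anesthetized with chloral hydrate. There were 6 mice per group and 1 mRNA library per group, and whether a library pools several mice is not stated. With 1 library per group, no difference below has a replicate check and no p-value is given. Each FPKM carries 95% bounds from the model of Cuffdiff, the program that computed it, and they do not cover variation between mice.

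IL-1 alpha and IL-1 beta act through one receptor, in which the binding chain Il1r1 pairs with the accessory chain Il1rap and recruits the adaptor MyD88 to turn on NF-kB. The system carries its own brakes. The antagonist Il1rn occupies Il1r1 without signaling, and Il1r2 is a decoy receptor that binds ligand but lacks a signaling domain. IL-1 beta and IL-18 are made as inactive precursors that caspase-1 cuts inside inflammasomes, whereas IL-33 is a nuclear protein released from damaged cells. In liver, Kupffer cells and recruited myeloid cells are the classical sources of IL-1, and hepatocytes and endothelial cells are among the responders.

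The sham and WI libraries went against their male label. Xist, the RNA of the inactive X, had an FPKM of 18.9 in sham liver, 20.1 in WI liver and 1.29 in IR liver. Eif2s3y, a gene of the Y chromosome, was listed at 0 in the sham and WI samples and at 13.2 in IR liver. Sex and reperfusion therefore cannot be told apart in comparisons with the IR sample, and the same holds for the longer time after surgery. The WI and sham samples were alike in these genes. FPKM values summed to 475754 in sham liver, 487912 in WI liver and 712423 in IR liver, of which the major urinary protein (Mup) genes took 2.33%, 2.11% and 12.6%. The hepatocyte markers other than Alb summed to 19311, 14973 and 24039 FPKM, and Alb was listed at 0 with a status that marks loci of too many fragments. The total of 11 neutrophil markers was 26.3 FPKM in sham liver, 20.04 in WI liver and 471 in IR liver, and that of 11 Kupffer cell and macrophage markers was 873, 501 and 363. In bulk tissue, fewer cells of a type and less RNA per cell cannot be told apart.

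Most differences among the interleukin-1 genes lay between the IR sample and the other samples. A gene is called changed here when FPKM + 1 differed at least 2-fold between samples. From WI to IR, Il1rn, Il1r2, Il1r1, Il33 and Il1b rose and Il18bp fell. The 5 of 10 members that rose compare with 5.78% of all tested genes, and the 1 that fell with 1.43%. The 95% bounds lay apart for the same 5 members, all higher in IR liver (3.22% of all tested genes), and for none that was lower (0.398%). Il1r2 passed the filter only through its level in IR liver. Without it, 4 of 9 members rose from WI to IR and 4 of 9 were higher in IR liver than in sham. The bounds lay apart for these 4 in each comparison. The shares of all tested genes also count genes that passed the filter only through IR liver. Against sham, the IR sample was higher for 5 members (5.35% of tested genes) and lower for 1 (2.15%), with bounds apart for the same 5 (2.7%) and the same 1 (1.12%). From sham to WI, Il1r1 fell, against 1.1% of tested genes, and its bounds lay apart (0.482%). No member rose past 2-fold between those samples (0.751%), and none was higher with bounds apart (0.195%). The median change of the 10 members on the scale of log2(FPKM + 1) was -0.13 from sham to WI and 0.99 from WI to IR. Over all tested genes it was 0.02 and 0.03. Without Il1r2, the middle change of the other 9 was that of Casp1 from sham to WI (-0.28) and that of Il1a from WI to IR (0.42). The comparisons share libraries, so the same WI value enters both the ischemia and the reperfusion comparison.

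**Figure D1:**
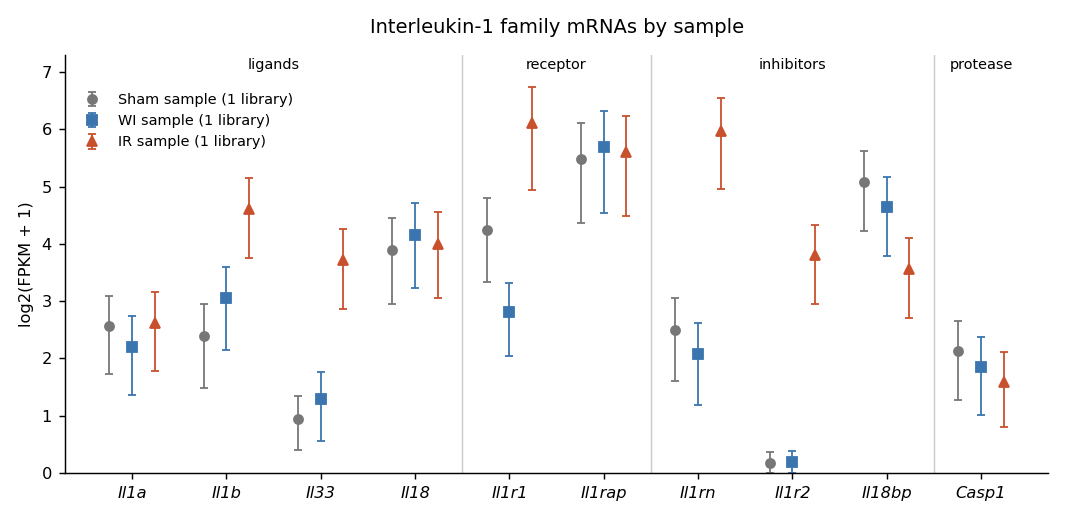
Each point is the level of a member in 1 library, as log2(FPKM + 1), and bars are the 95% bounds of Cuffdiff. The IR sample (triangles) lies above the other samples for Il1b, Il33, Il1r1, Il1rn and Il1r2, below them for Il18bp, and within their bounds for Il1a, Il18, Il1rap and Casp1.

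Among the ligands, Il1b and Il33 rose from WI to IR, and Il1a and Il18 passed 2-fold in no comparison. Il1b lies on chromosome 2 of mm10 (RefSeq gene from 129364569 to 129371164). It measured 4.24 FPKM in sham liver (95% bounds 1.81 to 6.68), 7.29 in WI liver (3.44 to 11.1) and 23.4 in IR liver (12.5 to 34.3). The sham and WI bounds overlapped, and the IR sample stood above both. The change of Il1b in log2(FPKM + 1) was 0.66 from sham to WI (SE 0.48 from the bounds), with an interval from -0.29 to 1.61 that includes 0. From WI to IR it was 1.56 (SE 0.47), a 3.21-fold difference in FPKM, and 282 of the 10792 genes rose as much or more. The bounds of Il1b in the WI and IR samples were apart by little, at a ratio of 1.12 between the nearest ends, and they overlapped once FPKM was rescaled to a common sum, where the change was 1.09.

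Il1a, the neighbouring gene on chromosome 2 (129299609 to 129310186) and a ligand of the same receptor, was at 4.94 FPKM in sham liver (2.33 to 7.54), 3.61 in WI liver (1.57 to 5.66) and 5.16 in IR liver (2.43 to 7.89). All bounds of Il1a overlapped. Its WI to IR change in log2(FPKM + 1) was 0.42 (SE 0.46). Between sham and IR the change of Il1a was 0.05, with an interval from -0.85 to 0.95. The table files give Il1a and Il1b a locus shared with the noncoding genes Gm14023 and Gm14047. Both had an FPKM of at most 0.308 in any sample, and reads of overlapping genes cannot be assigned without strand, which the sources used here do not give.

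Il33, on chromosome 19 (29925113 to 29960718), had an FPKM of 0.930 in sham liver (0.313 to 1.55), 1.44 in WI liver (0.479 to 2.40) and 12.2 in IR liver (6.31 to 18.05). The gene was close to the filter before reperfusion and clear of its earlier bounds after it. Its change in log2(FPKM + 1) from WI to IR was 2.43 (SE 0.44), and the FPKM ratio was 8.45. Since low values are understated on this scale, the IR change of Il33 against sham of 2.77 became 3.58 with a pseudocount of 0.1 in place of 1. The receptor chain of IL-33, Il1rl1, was at or below an FPKM of 0.00957 in each sample. Il18, on chromosome 9 (50554700 to 50581841), was at 13.8 FPKM in sham liver (6.74 to 20.9), 16.9 in WI liver (8.39 to 25.3) and 14.9 in IR liver (7.29 to 22.5). Its bounds overlapped throughout, and the change in log2(FPKM + 1) from WI to IR was -0.17, with an interval from -1.14 to 0.80.

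The 250 bases upstream of the start of Il1b, of Il1a and of the inner of 2 annotated starts of Il33 are shown because each holds a TATA box just ahead of the start, although Il1a did not rise with the others. Sequences are from RefSeq promoters of GRCm38.p6, the assembly behind mm10, and run 5′ to 3′ on the gene's strand up to the base before the start of the transcript in that table, which for Il1a and Il1b lies inside the outer end of the gene. The windows are chr2:129371140-129371389 for Il1b, chr2:129309973-129310222 for Il1a, both on the minus strand, and chr19:29945540-29945789 for Il33 on the plus strand. Capitals mark matches to any motif searched.
Il1b: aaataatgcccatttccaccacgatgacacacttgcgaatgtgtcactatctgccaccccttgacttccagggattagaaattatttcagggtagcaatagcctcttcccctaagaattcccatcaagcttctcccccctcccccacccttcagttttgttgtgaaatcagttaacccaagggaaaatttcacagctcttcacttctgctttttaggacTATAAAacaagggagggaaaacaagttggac
Il1a: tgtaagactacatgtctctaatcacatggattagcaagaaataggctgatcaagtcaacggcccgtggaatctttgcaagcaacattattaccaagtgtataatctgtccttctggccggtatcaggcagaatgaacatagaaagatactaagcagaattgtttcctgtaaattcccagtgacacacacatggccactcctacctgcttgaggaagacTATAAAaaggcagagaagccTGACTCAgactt
Il33: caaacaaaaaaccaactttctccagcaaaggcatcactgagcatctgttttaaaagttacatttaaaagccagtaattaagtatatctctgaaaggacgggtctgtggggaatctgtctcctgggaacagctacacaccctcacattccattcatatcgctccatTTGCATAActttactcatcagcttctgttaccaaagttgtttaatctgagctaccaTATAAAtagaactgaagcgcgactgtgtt

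The letters TATAAA began 31 bases upstream in Il1b, 32 in Il1a and 29 in Il33. They occurred in 12.4% of all 32851 promoter windows of that length. Il1a also held an AP-1 match (TGANTCA, 6.75% of windows) beginning 12 bases upstream, and Il33 a C/EBP match (TTGCNNAA, 9.56%) beginning 85 bases upstream. The kappaB motif of NF-kB (7.25% of windows), searched like the others on both strands, was not found in these 3 windows. Which start the reads of Il33 came from is not known from values per gene. A match is a run of letters and no evidence of binding.

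The binding chain Il1r1 was the one member that changed in both stages. It lies on chromosome 1 (40222480 to 40316201). It measured 17.9 FPKM in sham liver (9.04 to 26.8), 6.05 in WI liver (3.10 to 8.99) and 67.8 in IR liver (29.7 to 105.9). The WI sample was thus the lowest and the IR sample the highest, and no bounds overlapped, although those of sham and WI were separated by a ratio of 1.01 only. On the scale of log2(FPKM + 1), Il1r1 fell by 1.42 from sham to WI (SE 0.46), where 44 genes fell as much or more. It then rose by 3.29 from WI to IR (SE 0.51), an 11.2-fold difference in FPKM. Against sham the change was 1.86 (SE 0.53), but those bounds overlapped when FPKM was rescaled to a common sum. The WI library enters both of the first values. Among 8 sinusoidal endothelial markers, Lyve1, which codes for a hyaluronan receptor, had the same order, with an FPKM of 11.2 in sham liver, 2.73 in WI liver and 33.4 in IR liver. The others did not share this pattern, since 6 of the 8 had a negative change from WI to IR and only Lyve1 passed 2-fold. Over all tested genes, 52.4% had a positive change from WI to IR and 5.78% rose past 2-fold. The summed FPKM of the 8 markers was 184, 143 and 138, and their part in the values of Il1r1 was not tested.

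Il1rap, the accessory chain, on chromosome 16 (26581509 to 26730128), passed 2-fold in no comparison. It measured 43.7 FPKM in sham liver (19.6 to 67.8), 50.4 in WI liver (22.2 to 78.6) and 47.7 in IR liver (21.5 to 74.0). The changes of Il1rap in log2(FPKM + 1) were 0.20 from sham to WI and -0.08 from WI to IR, with an SE of 0.57 for each. These SEs allow differences of about 2-fold in either direction, since the interval from WI to IR ran from -1.19 to 1.03.

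The 2 inhibitors of IL-1 had the largest rises of the 10 genes from WI to IR. Il1rn, on chromosome 2 (24336860 to 24351491), had an FPKM of 4.65 in sham liver (2.04 to 7.27), 3.20 in WI liver (1.27 to 5.12) and 61.3 in IR liver (30.2 to 92.5). The sham and WI values overlapped in their bounds, and the IR value stood far above them. In log2(FPKM + 1) the difference of Il1rn between WI and IR was 3.89 (SE 0.50), a 19.2-fold difference in FPKM, and 41 genes of the 10792 tested rose as much or more. Even the nearest ends of the bounds were 5.89-fold apart.

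Il1r2, the decoy receptor on chromosome 1 (40084692 to 40125230), was at 0.134 FPKM in sham liver (0 to 0.282) and 0.146 in WI liver (0 to 0.306). In the IR sample it reached 12.96 FPKM (6.72 to 19.2). The gene was therefore near 0 in both samples without reperfusion, and with reperfusion its bounds overlapped those of Il18. Its change from WI to IR was 3.61 in log2(FPKM + 1) (SE 0.34), and the nearest ends of the bounds were 22.0-fold apart. With lower bounds of 0 before reperfusion, the size of this rise depends on the pseudocount, being 5.73 with 0.1 and 6.38 with 0.01. The noncoding gene Gm16894, which shares the locus of Il1r2 in the table files, was listed at 0 in all 3 samples.

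Upstream windows of these 2 inhibitors are shown because these genes had the largest rises. They are chr2:24336610-24336859 for the outermost of 3 annotated starts of Il1rn and chr1:40085843-40086092 for Il1r2, both on the plus strand, and capitals again mark motif matches. The RefSeq gene of Il1r2 begins farther out, at 40084692, so its window lies wholly inside the gene.
Il1rn: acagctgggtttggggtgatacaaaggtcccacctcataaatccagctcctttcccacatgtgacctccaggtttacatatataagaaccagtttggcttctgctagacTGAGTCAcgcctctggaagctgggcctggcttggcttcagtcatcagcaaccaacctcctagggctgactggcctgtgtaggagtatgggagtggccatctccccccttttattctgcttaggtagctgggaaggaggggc
Il1r2: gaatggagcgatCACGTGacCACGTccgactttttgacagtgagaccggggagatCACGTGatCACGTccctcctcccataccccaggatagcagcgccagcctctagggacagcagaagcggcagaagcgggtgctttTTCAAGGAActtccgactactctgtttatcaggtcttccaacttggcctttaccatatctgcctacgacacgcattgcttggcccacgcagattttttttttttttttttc

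The window of Il1rn held an AP-1 match beginning 141 bases upstream. That of Il1r2 held ACGTG, the core of the hypoxia response element, 6 times when both strands were read, all between 238 and 183 bases upstream. The palindrome CACGTG counts on both strands and gave 4 of the 6. At least 1 ACGTG occurred in 16.6% of all windows. Windows of Il1r1, Il1rap and Casp1 held ACGTG too, and of these only Il1r1 was called changed. Il1r2 also held a match to the STAT motif (TTCNNNGAA, 7.02% of windows) beginning 111 bases upstream. Of the 14 windows of the 10 members, the kappaB motif was found in 1, at the inner start of Il1r1.

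Il18bp, a secreted protein that binds and neutralizes IL-18, was the only member that fell from WI to IR. The gene lies on chromosome 7 (102015074 to 102018232). It measured 32.8 FPKM in sham liver (17.6 to 47.9), 23.9 in WI liver (12.8 to 34.9) and 10.9 in IR liver (5.53 to 16.2). The values stepped down over the 3 samples, and only the sham and IR bounds lay apart. The change of Il18bp in log2(FPKM + 1) was -0.44 from sham to WI (SE 0.47), which is within 2-fold. It was -1.07 from WI to IR (SE 0.47) and -1.51 from sham to IR (SE 0.47). After rescaling to a common sum, the WI and IR bounds also lay apart, with a change of -1.62. The median change of Kupffer cell and macrophage markers was -0.69 from sham to WI and -0.61 from WI to IR. Between sham and IR, 8 of 11 were lower past 2-fold (2.15% of all tested genes) and none was higher (5.35%). Clec4f, a lectin of Kupffer cells, went from 114.9 to 65.3 and 32.7 FPKM, and Vsig4, a complement receptor of these cells, from 67.8 to 35.1 and 12.4. Marco and Cd68 did not follow, at 25.3 and 18.5 FPKM in IR liver against 20.9 and 18.5 in sham. None of the 11 markers was at 0. The part of these cells in the values of Il18bp was not tested.

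Casp1, on chromosome 9 (5298517 to 5307281), was the member with the lowest level after reperfusion. It measured 3.38 FPKM in sham liver (1.43 to 5.32), 2.61 in WI liver (1.02 to 4.19) and 2.02 in IR liver (0.744 to 3.30). All bounds overlapped. The change of Casp1 in log2(FPKM + 1) was -0.28 from sham to WI, -0.25 from WI to IR (SE 0.45) and -0.53 from sham to IR, and it passed 2-fold only in the last comparison and only after rescaling to a common sum, at -1.08. mRNA levels do not show whether the enzyme was active.

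**Figure D2:**
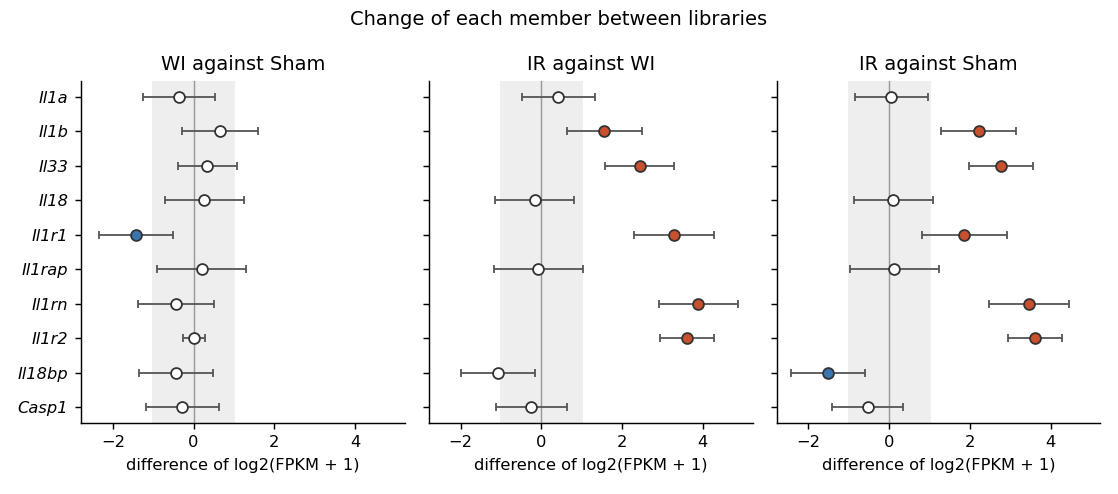
Points are differences of log2(FPKM + 1) between 2 libraries, bars are 95% intervals computed from the bounds of Cuffdiff, and the grey band is the range under 2-fold. Filled points mark members whose bounds lay apart (red higher, blue lower). Il1r1 is the filled point of the first panel, and the 5 red points of the middle panel range from 1.56 for Il1b to 3.89 for Il1rn.

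The balance of antagonist to agonist mRNA differed between the samples. FPKM is a value per length, so levels of 2 genes can be set side by side within a library. Il1rn was at 1.10 times Il1b in sham liver (95% interval 0.491 to 2.45), 0.439 times in WI liver (0.197 to 0.977) and 2.62 times in IR liver (1.31 to 5.22). The intervals of WI and IR did not overlap, while each overlapped that of sham. Il1b was at 0.860 times Il1a in sham liver (0.394 to 1.88), 2.02 times in WI liver (0.930 to 4.37) and 4.54 times in IR liver (2.24 to 9.18), where the sham and IR intervals lay apart. The decoy Il1r2 was at 0.00748 times Il1r1 in sham liver (upper end 0.0251), 0.0241 times in WI liver (upper end 0.0801) and 0.191 times in IR liver (0.0912 to 0.401). In sham and WI the bounds of Il1r2 reach 0, so the ratio has no lower limit above 0. The decoy thus stayed the scarcer receptor mRNA even after reperfusion. Il1rap exceeded Il1r1 by 2.44 times in sham liver (1.16 to 5.12) and 8.34 times in WI liver (3.97 to 17.5), and in IR liver the ratio was 0.704 (0.321 to 1.55). For IL-18, the ratio of Il18bp to Il18 was 2.37 in sham liver (1.19 to 4.73), 1.42 in WI liver (0.714 to 2.80) and 0.730 in IR liver (0.359 to 1.48), with intervals that overlapped throughout.

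**Figure D3:**
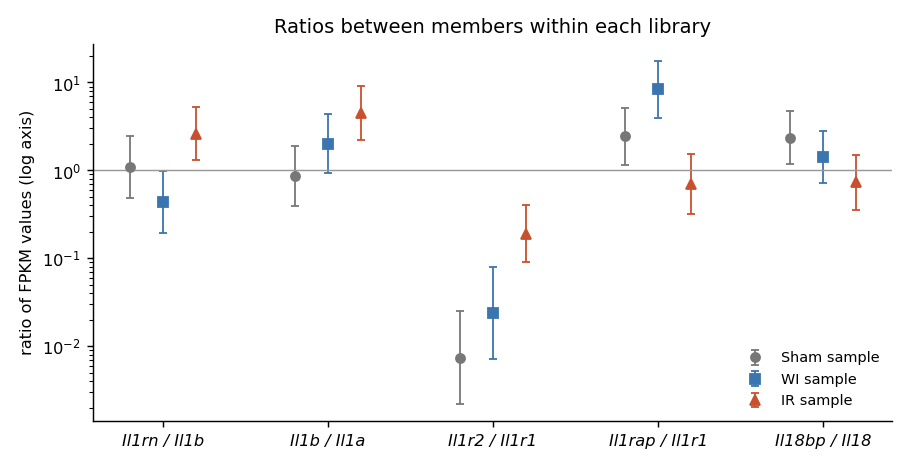
Ratios of FPKM between pairs of members within each library, on a log axis, with 95% intervals computed on a log scale from the bounds of Cuffdiff (for Il1r2 in sham and WI liver, whose bounds reach 0, the lower ends drawn are no limit). The ratio of Il1rn to Il1b is lowest in WI liver (0.439) and highest in IR liver (2.62), and that of Il1r2 to Il1r1 is highest in IR liver (0.191).

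The order of the levels changed with reperfusion. In the sham sample Il1rap (43.7 FPKM) was the highest member, followed by Il18bp, Il1r1, Il18, Il1a, Il1rn, Il1b, Casp1, Il33 and Il1r2 (0.134). In the WI sample the order was Il1rap, Il18bp, Il18, Il1b, Il1r1, Il1a, Il1rn, Casp1, Il33 and Il1r2. In the IR sample it was Il1r1, Il1rn, Il1rap, Il1b, Il18, Il1r2, Il33, Il18bp, Il1a and Casp1. Neighbours in these orders mostly did not differ beyond their bounds. The bounds overlapped for 8 of 9 neighbouring pairs in sham liver, 8 of 9 in WI liver and 9 of 9 in IR liver, and the exception in the first 2 was the gap between Il33 and Il1r2.

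For each of the 6 members that changed, the genes with the most similar pattern were sought among 6629 others with an FPKM of at least 5 in some sample. Likeness was the distance between their 2 changes, from sham to WI and from WI to IR, in log2(FPKM + 1), over 3 libraries only. Nearest to Il1rn was Tnfrsf12a, a receptor of the TNF family, at a distance of 0.0260, then Hmox1 and Atf3. Nearest to Il1b were Xbp1 (0.0715), Steap4 and Cib3, and nearest to Il33 were Gstp1 (0.112), Srxn1 and Ier3. For Il18bp they were Glt1d1 (0.0283), Cd74, the invariant chain of MHC class II, and Cyp17a1. For Il1r1 the nearest were farther off, namely Gadd45b (0.273), Lyve1 and Cebpd. For Il1r2 they were Cldn14 (0.169), Adamts4 and Eif2s3y. The last of these is the Y-linked gene named above, so a pattern of absence in 2 libraries and presence in the third is shared with a gene that marks the sex of the library.

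Further genes of the pathway were taken from lists chosen by general knowledge, with earlier results of these data known. Of 12 other ligands and receptors of the family, 10 were below the filter and 6 of these were listed at 0 in each sample. Il1f9, which codes for the ligand IL-36 gamma, was the one that rose from WI to IR and passed the filter only through IR liver, with an FPKM of 0.270 in sham liver, 0.202 in WI liver and 3.03 in IR liver (1.24 to 4.82). Sigirr, an inhibitory receptor of the family, was at 7.25, 8.30 and 8.51 FPKM. Of 25 genes of IL-1 receptor signaling, all of them tested, none changed from sham to WI, and 3 rose and none fell from WI to IR, against 5.78% and 1.43% of all tested genes. The 3 were the adaptor Myd88 (change in log2(FPKM + 1) of 1.68), the transcription factor subunit Jun (1.48) and the NF-kB subunit Rela (1.19), and only for Myd88 did the bounds lie apart. The median change of the 25 genes from WI to IR was 0.06. The other 22 stayed within 2-fold. Against sham, 2 of the 25, Myd88 and Rela, were higher in IR liver (5.35% of all tested genes) and none was lower (2.15%). Jun measured 71.7 FPKM in sham liver, 39.1 in WI liver and 110.9 in IR liver, a change of 0.62 from sham to IR.

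Of 17 inflammasome and pyroptosis genes, 10 were tested, none changed from sham to WI, and 2 rose and none fell from WI to IR, against 5.78% and 1.43% of all tested genes. Those were Casp4, a caspase that senses lipopolysaccharide in the cytosol, and Mefv, which codes for the sensor pyrin. Casp4 measured 1.92 FPKM in sham liver, 1.21 in WI liver and 6.20 in IR liver. Mefv was at 0.441, 0.200 and 1.85 FPKM and passed the filter only through IR liver. Between sham and IR the changes of Casp4 and Mefv were 1.30 and 0.98, with overlapping bounds for both. Against sham, Txnip, an inhibitor of thioredoxin, was lower in IR liver by a change of -1.06 with overlapping bounds. The sensor Nlrp3 and the adaptor Pycard, named here after their values were seen, were at 1.12 and 1.06 FPKM in IR liver, with changes of 0.68 and -0.03 from WI that did not pass 2-fold. Nlrp3 too passed the filter only through IR liver.

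Genes that IL-1 is known to induce, which other cytokines induce too, mostly rose from WI to IR. Of 20 listed, 17 were tested, and 5 of these (Cxcl2, Sele, Ptgs2, Csf3 and Irg1) passed the filter only through IR liver, so that they had to be higher there. Of the other 12, 9 rose from WI to IR and none fell, where 5.78% of all tested genes rose and 1.43% fell. The bounds lay apart for 7 of the 9 (3.22%). Against sham, 7 of the 12 were higher in IR liver (5.35%), 6 of them with bounds apart (2.7%), and 1 was lower (2.15%). These shares also count genes that passed only through IR liver. Among the 9, Saa1 was at 3414 FPKM in sham liver, 1248 in WI liver and 3251 in IR liver. Saa2 was at 2187, 915 and 2756, and for both the IR and sham bounds overlapped. Among the 12 genes, the monocyte chemokine Ccl2 rose from 2.55 FPKM in WI liver to 16.3 in IR liver. Of the 5, the neutrophil chemokine Cxcl2 was at 0.308 and 22.8 FPKM and the macrophage gene Irg1 at 0.281 and 5.52. Cxcl1, another neutrophil chemokine, rose in both stages, from 8.13 to 21.1 and 84.3 FPKM. From sham to WI the list split, since Cxcl1 and Lcn2 rose (0.751% of all tested genes) and Vcam1, Saa1, Saa2 and Saa3 fell (1.1%), 5 of these being named after their values were seen. The bounds lay apart for Vcam1 and overlapped for the other 5. Vcam1, an adhesion molecule of endothelium, was the only one of the 17 that was lower in IR liver than in sham past 2-fold, with an FPKM of 30.5 in sham liver, 7.76 in WI liver and 10.8 in IR liver.

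Markers of other cells moved unevenly from WI to IR, and most tested ones of stellate cells and hepatocytes stayed within 2-fold. Of 11 neutrophil markers in the tables, 7 passed the filter, 3 of them (Cxcr2, Mmp8 and Ngp) only through IR liver. The other 4 all rose from WI to IR with bounds apart, where 5.78% of all tested genes rose and 3.22% were higher with bounds apart. Both shares also count genes that passed the filter only through IR liver. The 4 markers below the filter, Mmp9, Camp, Elane and Mpo, stayed under an FPKM of 1 in each sample. S100a8 went from 9.17 FPKM in WI liver to 211.7 in IR liver, and the chemokine receptor Cxcr2 from 0.163 to 3.65. The granule gene Mpo was listed at 0 in IR liver and Elane at 0 in WI liver. Elane was at 0.118 FPKM in IR liver with bounds from 0 to 15.98, so its level there is hardly limited. Ly6g was not analysed here. Neutrophils express Il1b, Il1rn and Il1r2, and the part of these cells in their rise was not tested. Of 5 monocyte markers, 3 rose from WI to IR (5.78% of all tested genes), 2 of them having passed the filter only through IR liver. Of the other 3 markers, 1 rose, Ly6c2, with overlapping bounds, and against sham none passed 2-fold. The 5 monocyte markers had a summed FPKM of 50.9 in sham liver, 33.6 in WI liver and 75.2 in IR liver. The 8 stellate cell markers summed to 156, 111 and 114 FPKM and the 8 lymphocyte and NK cell markers to 7.60, 5.84 and 2.71. Of the 7 hepatocyte markers tested, 1 rose from WI to IR, where 5.78% of all tested genes rose. It was Apoa1, with a change in log2(FPKM + 1) of 1.05 (SE 1.08) and overlapping bounds.

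**Figure D4:**
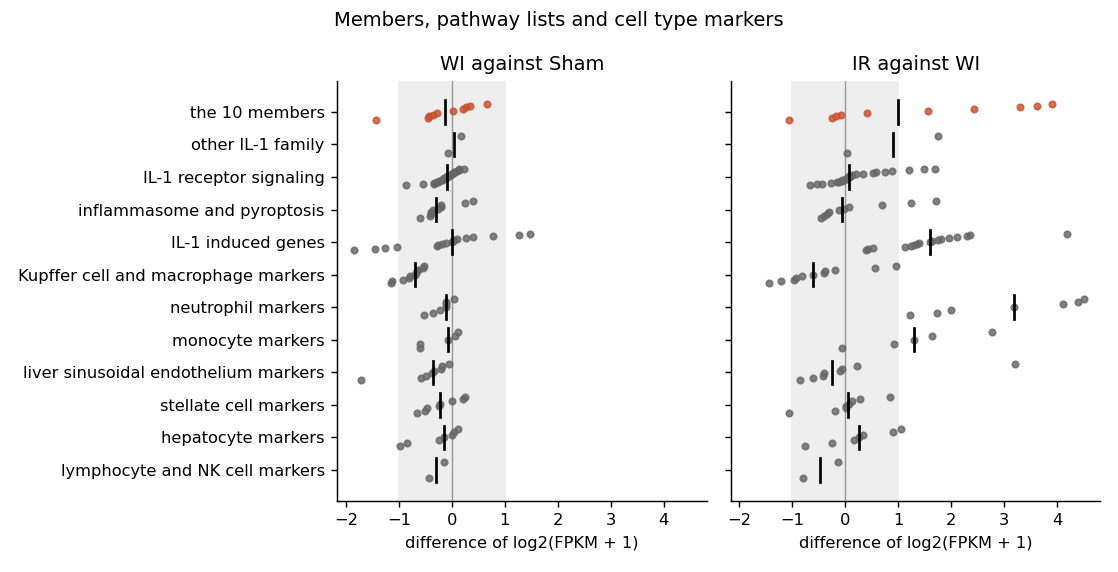
Each point is a gene that passed the filter, placed by its difference of log2(FPKM + 1) from sham to WI (left) or from WI to IR (right). Black bars are medians and the grey band is the range under 2-fold. The members (red) spread from -1.07 to 3.89 in the right panel. In that panel the member Il1r2, 5 of the IL-1 induced genes and 3 of the neutrophil markers passed the filter only through IR liver. So did 2 inflammasome genes, 2 monocyte markers, 1 signaling gene, 1 stellate cell marker and 1 other gene of the family. The signaling and inflammasome genes lie mostly within the band.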

How the data were processed

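The data were mRNA profiles of mouse liver from 3 libraries, 1 each for sham, WI and IR. The authors mapped reads to mm10 with TopHat 2.0.9 and computed FPKM per gene with Cuffdiff (Cufflinks 2.0.2) under default settings. Each FPKM in the deposited tables comes with 95% bounds and a status, which was OK for all 10 members. Tool versions and the build are also in the submitters' processing notes. The tables hold no counts per gene, so the depth behind each value was not used here and the bounds give the precision. The median coefficient of variation was 26.5% in each sample.

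Changes were differences of log2(FPKM + 1), which understate changes of low genes, over genes that reached an FPKM of 1 in some sample. The distance from the value to its upper bound was taken as 1.96 SE, and SEs were carried to the log scale. With 1 library per group there was no test. The members and the lists were chosen with earlier results of these data known. All members were named, and of each list at most the 4 genes with the largest change among those past 2-fold, unless stated otherwise. RefSeq promoters and gene positions (GRCm38.p6) matched all 10 members by symbol. The scripts were tested on simulated data. The alternatives were other pseudocounts, filters, fold thresholds and scalings. Python 3.11.15, numpy 2.4.6, pandas 2.3.3 and matplotlib 3.10.9 were used.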

Additional observations from a re-analysis of the deposited data

How the results depend on the processing

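No paired analysis was possible because each condition has 1 library, and for the same reason no library could be left out and no batch examined. From sham to WI, 1 member changed at 2-fold, 2 at 1.5-fold (Il1b was then called higher) and 0 at 4-fold. From WI to IR and from sham to IR, 6 members changed at 2-fold and 4 at 4-fold. Il1r2, which passed the filter only through IR liver, is among the 6 and among the 4 in both comparisons. No share of all tested genes was computed at 1.5-fold, at 4-fold or with other filters, so those counts have none beside them. With an FPKM of at least 1 required in all samples, which removes Il1r2 and Il33, 3 members in place of 5 had bounds apart from WI to IR, and 4 in place of 6 changed in both comparisons with IR. Rescaling FPKM to a common sum took the median change of all tested genes from 0.03 to -0.45 between WI and IR, and the split of changed genes from 624 higher and 154 lower to 385 higher and 1185 lower. Between sham and IR, the split went from 577 higher and 232 lower to 319 higher and 1554 lower. The 5 members that rose from WI to IR still did so, and 7 in place of 6 changed from sham to IR, Casp1 being the addition. Rescaling by the median ratio changed no call of a member. Of 30 changes of members, 27 stayed within their 95% interval with a pseudocount of 0.1, and 27 with 0.01. The others were those of Il1r2 in both comparisons with IR and of Il33 between sham and IR, all larger. No change past 2-fold turned its direction under any pseudocount or scaling tried. Bounds that overlap and an interval that includes 0 are different rules. From WI to IR the bounds of Il18bp overlapped, yet the interval of its change ran from -1.98 to -0.15 and excluded 0. In every other case of overlapping bounds the interval of the change included 0. There a difference was not detectable at the precision of these values.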

Other observations

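The interleukin-1 genes lie in clusters in which not every gene was called changed. For neighbours at or near 0 in each sample, a change could not be seen. On chromosome 1, Il1r2, Il1r1, Il1rl2, Il1rl1, Il18r1 and Il18rap follow one another within 473086 bases of mm10. The first 2 rose from WI to IR, by 3.61 and 3.29 in log2(FPKM + 1), while Il1rl2, Il1rl1 and Il18r1, receptor chains for IL-36, IL-33 and IL-18, stayed at or below an FPKM of 0.163 in each sample. Il18rap, the accessory chain for IL-18, was at 0.0550 FPKM in sham liver, 0.102 in WI liver and 0.645 in IR liver, which is below the filter. Its bounds lay apart between sham (upper end 0.117) and IR (lower end 0.200). On chromosome 2, the 5 genes from Il1f9 to Il1rn lie within 165016 bases. Those at the ends, Il1f9 and Il1rn, rose from WI to IR by 1.75 and 3.89, and Il1f6, Il1f5 and Il1f10 between them were listed at 0 in all 3 samples. On chromosome 9, Casp1 and Casp4 are neighbours within 38275 bases. Casp4 rose from WI to IR by 1.70 and Casp1 had a change of -0.25.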
